A study of Homo sapiens with 12 samples.

Results

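The response of MDA-MB-231 cells to loss of NONO was read from 6 RNA-seq libraries, 3 from NONO-knockdown cells and 3 from the negative control (NC) cells of the same experiment, out of 12 libraries in the series. The other 6 libraries, a PKM2 knockdown with an NC of its own, were used only to ask which changes differed between the knockdowns. MDA-MB-231 is an established human triple-negative breast cancer (TNBC) cell line, mesenchymal in character, which carries mutant p53. Knockdown was by siRNA, the siRNA used for these libraries is not named in the sources used here, and effects of the siRNA other than on NONO cannot be told apart from loss of NONO. Apart from the siRNA the groups share the same line, which the labels call WT in the NC cells, and poly(A)-selected RNA. The labels number the libraries as repeats without saying that they came from separate cultures, so P values measure the spread between these libraries, which may be technical. Of the 60623 genes listed, the 14832 with enough counts to be tested are described here.

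NONO is a nuclear RNA- and DNA-binding protein of the DBHS family, together with SFPQ and PSPC1, with which it forms dimers. These proteins assemble on the long non-coding RNA NEAT1 to form paraspeckles, nuclear bodies that hold back RNAs and proteins. NONO is also known for roles in transcription, pre-mRNA splicing, repair of DNA double-strand breaks, the cAMP response and the circadian clock, so genes of each of these processes were examined beside general pathways of a carcinoma cell.

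The libraries held 19861762 to 20981712 estimated counts, and mitochondrial genes took 4.88% to 5.51% of them. The first principal component, with 49.5% of the variance, separated knockdown from NC, and the second, with 18.5%, separated NC library 1 from the other 5. Per degree of freedom, the chi-square between NC library 1 and its replicates was 11.1 and 8.90, against 2.51 between NC libraries 2 and 3 and 2.34 to 3.22 between knockdown libraries. In NC library 1 the immediate early gene EGR1 stood at 7.93 CPM (read counts scaled to library size and TMM factor), against 43.9 and 36.4 CPM in the other NC libraries, and the hypoxia gene NDRG1 at 153 against 312 and 334 CPM. All 10 markers of MDA-MB-231 and mesenchymal carcinoma cells were detected, with a summed level of 6326 to 6405 TPM (transcript abundance scaled for length and depth) in NC and 7008 to 7106 TPM after knockdown. Of 8 luminal and receptor-positive breast markers 3 were high enough to be tested, ERBB2, FOXA1 and GATA3, summing to between 29.1 and 40.8 TPM, and of 7 immune and 6 endothelial and stromal markers 1 each, CD14 at 0.44 to 1.04 TPM and PECAM1 at 0.18 to 0.70 TPM.

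The knockdown was deep and even, and the partners of NONO moved the other way. NONO (ENSG00000147140, chrX:71283192-71301168, plus strand on GRCh38) had 391, 358 and 369 CPM in the NC libraries and 61.8, 64.3 and 61.9 CPM after knockdown, a 5.95-fold fall (log2 fold change -2.57, SE 0.049, edgeR adjusted P = 1.17e-10). SFPQ, the partner through which NONO acts in splicing and repair, had 364, 293 and 304 CPM in the NC libraries and 524, 502 and 495 CPM after knockdown (log2 fold change 0.66, SE 0.070, edgeR adjusted P = 4.06e-05). PSPC1, the remaining family member, had 139, 117 and 117 CPM in the NC libraries and 188, 175 and 172 CPM after knockdown (log2 fold change 0.52, SE 0.068, edgeR adjusted P = 1.75e-04). NEAT1, the RNA scaffold of paraspeckles, had 409, 494 and 472 CPM in the NC libraries and 821, 700.1 and 709 CPM after knockdown (log2 fold change 0.70, SE 0.075, edgeR adjusted P = 4.70e-05). No NC library overlapped a knockdown library in any of these 4 genes, which was also so for 46.1% of all genes tested.

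**Figure D1:**
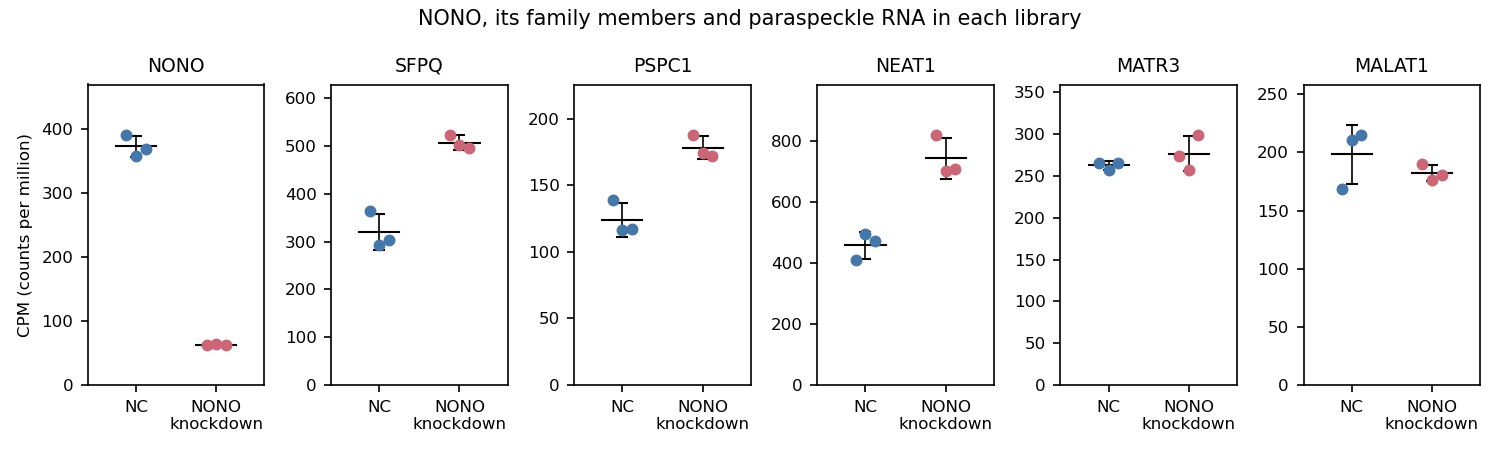
Level of NONO, its family members and the paraspeckle RNA NEAT1 in each library, in CPM on a linear axis that starts at 0, with points for libraries, a bar for the group mean and whiskers for the SD (n = 3). NONO falls to 61.8 to 64.3 CPM in the knockdown libraries while SFPQ, PSPC1 and NEAT1 lie above all NC libraries.

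Across the 22 tested genes of the DBHS family and of paraspeckles, 3 were lowered and 8 raised at a Benjamini-Hochberg adjusted P below 0.05 in edgeR's quasi-likelihood test, the rule behind "lowered", "raised" and "called" below. All 8 raised genes were among the 19 of the list above 104 CPM, the highest quintile of protein-coding genes by level, in which 36.9% were raised. Beside NONO, the lowered genes were NUDT21, a subunit of a pre-mRNA cleavage factor that promotes the short form of NEAT1 (436 ± 15.7 to 304 ± 8.11 CPM, mean ± SD, n = 3, log2 fold change -0.52, SE 0.042, edgeR adjusted P = 6.20e-06), and HNRNPUL1 by a small margin (-0.18, adjusted P = 0.00393). HNRNPA1, which represses splice sites, rose from 856 ± 27.1 to 1115 ± 17.7 CPM (log2 fold change 0.38, SE 0.038, edgeR adjusted P = 2.56e-05). MATR3, TARDBP, HNRNPK and CPSF6 were not called, with log2 fold changes between -0.04 and 0.08. The other abundant nuclear RNA, MALAT1, had 169, 211 and 215 CPM in the NC libraries and 189.9, 176 and 181 CPM after knockdown, and its groups overlapped (log2 fold change -0.12, SE 0.078, edgeR adjusted P = 0.265).

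Much of the transcriptome moved by a little, and the large changes were mostly falls. Of 14832 genes tested, 2558 (17.2%) were lowered and 2396 (16.2%) raised, 4954 (33.4%) in all, with a median absolute log2 fold change of 0.35 among them, and the median over all genes tested was -0.01. Only 1178 of the called genes changed by more than 1.5-fold, and 3776 by less. By the study's own cutoff, more than 2-fold at an unadjusted P below 0.05, there were 320 lowered (2.16%) and 117 raised (0.789%) differentially expressed genes (DEGs), of which 382 also had an adjusted P below 0.05. The raised DEGs numbered 193 without NC library 2 and 193 without NC library 3. On log2(TPM + 1) values limma called 1734 lowered and 911 raised genes, with a median over all genes of -0.05. The 3 NC and 3 knockdown libraries did not overlap in 6832 genes (46.1%), among them 4874 of the 4954 called genes. Separation of the groups, stated for single genes above and below, thus adds little to their call.

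Which genes were called depended on their level. Protein-coding genes were sorted into quintiles by the mean CPM of the group in which they were higher. Raised calls made up 3.42% of the lowest quintile (below 7.9 CPM) and 36.9% of the highest (above 104 CPM), while lowered calls stayed between 14.9% and 23.4%. The median log2 fold change passed from -0.13 in the lowest quintile to 0.07 in the highest, so for several lists of abundant genes the count within the highest quintile is given too. For those counts list members were placed by the mean of both groups against the same edge of 104 CPM, a slightly different rule. Large changes of both directions lay mostly at low levels, with 190 of the 276 lowered and 41 of the 76 raised protein-coding DEGs in the lowest quintile. Genes that span more than 100089 bases of the genome, the longest quintile, held 80 lowered and 11 raised DEGs, close to the 75 and 15 of the shortest quintile, below 10976 bases, beside 36 to 45 lowered DEGs in each of the other quintiles. At an adjusted P below 0.05, 25.02% of the longest quintile were lowered and 16.9% raised, against 18.0% and 15.9% of the shortest. Of 1516 long non-coding RNA genes 5.54% were lowered and 6.33% raised, beside 19.3% and 18.0% of 12551 protein-coding genes, and 29 were lowered and 29 raised DEGs. Pseudogenes, whose reads are hard to assign, had 7.52% lowered and 5.01% raised of 479.

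**Figure D2:**
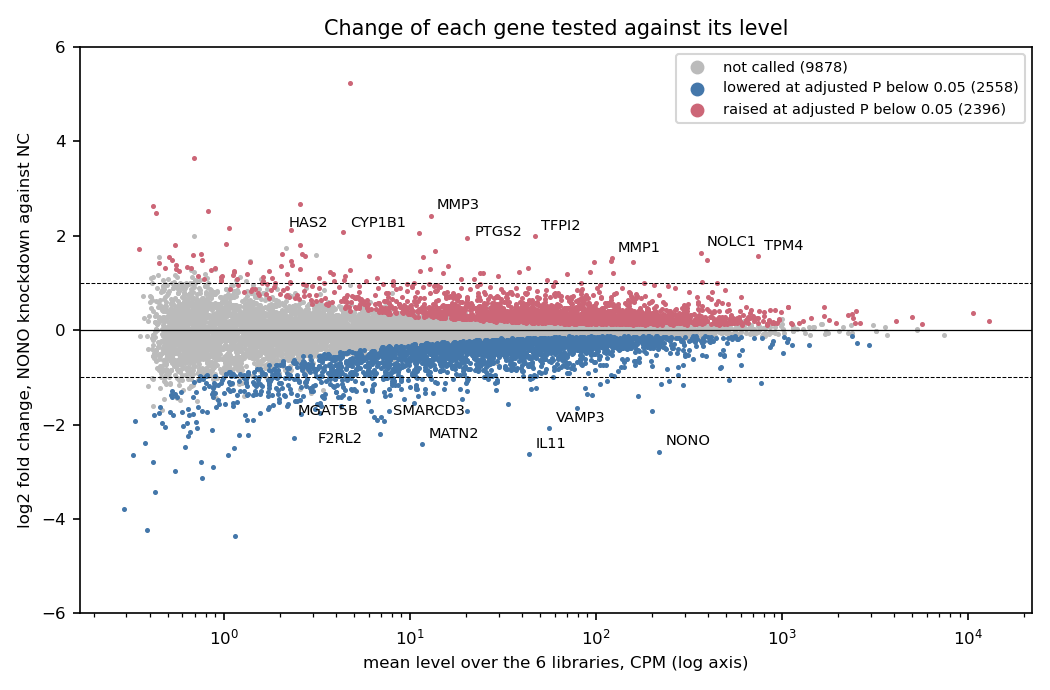
log2 fold change of every gene tested (vertical axis) against its mean level over the 6 libraries in CPM (horizontal log axis), grey for genes not called, blue for 2558 lowered and red for 2396 raised, with dashed lines at a 2-fold change. Red outnumbers blue among abundant genes, blue reaches farther below the lower dashed line, and the unlabelled point at 5.23 is AL035461.3.

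The named genes with the largest falls among DEGs of at least 5 CPM were a cytokine, matrix and surface proteins, and vesicle and cytoskeleton genes. IL11, a cytokine of the IL6 family that signals through STAT3 and is known in breast cancer for bone metastasis, had 75.1, 79.96 and 71.1 CPM in the NC libraries and 14.2, 12.3 and 10.1 CPM after knockdown (log2 fold change -2.63, SE 0.099, edgeR adjusted P = 2.19e-08). MATN2, an adaptor of the extracellular matrix, had 20.3, 19.2 and 19.2 CPM in the NC libraries and 3.79, 3.20 and 4.02 CPM after knockdown (log2 fold change -2.41, SE 0.11, edgeR adjusted P = 1.25e-07). VAMP3, a membrane-fusion protein of recycling endosomes, had 91.3, 92.9 and 87.5 CPM in the NC libraries and 22.2, 20.3 and 22.2 CPM after knockdown (log2 fold change -2.07, SE 0.059, edgeR adjusted P = 2.18e-09). These genes were also required not to overlap between the groups, so their separation is given by the choice. F2RL2, a thrombin-cleaved receptor, changed by -2.21, SMARCD3, a subunit of BAF chromatin remodellers, by -1.92, MGAT5B, which branches O-mannosyl glycans, by -1.90, GPR137C by -1.83, SLC1A4, a carrier of neutral amino acids, by -1.76, RASGRF1, an exchange factor for Ras, by -1.72, and TRNP1 by -1.71, all on the log2 scale with edgeR adjusted P values up to 9.34e-05. IQGAP2, which overlaps F2RL2 on the opposite strand, also fell (-0.998, edgeR adjusted P = 0.00393), and since the strand used in counting is not stated, reads of overlapping genes cannot be told apart.

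MYH10, the heavy chain of nonmuscle myosin IIB, was a case where the units disagreed. Its estimated counts gave 11.04, 10.5 and 11.4 CPM in the NC libraries and 3.49, 3.000 and 2.64 CPM after knockdown (log2 fold change -1.85, SE 0.14, edgeR adjusted P = 3.46e-06), but its TPM values were 1.97, 2.44 and 2.51 in NC and 3.35, 0.94 and 0.68 after knockdown, so the first knockdown library lay above all NC libraries. With limma on log2(TPM + 1) it was not called.

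IL11 lies on the minus strand of chromosome 19. The 100 bases before its start (chr19:55370464-55370563, GRCh38.p14, from RefSeq, 5′ to 3′ on the gene's strand) are shown because the gene had the largest fall, with the AP-1 word TGACTCA, here as its reverse complement, in capitals.
IL11: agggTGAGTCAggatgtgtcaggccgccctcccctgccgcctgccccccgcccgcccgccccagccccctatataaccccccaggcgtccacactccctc
This word, on either strand, lay in 4.92% of 27305 RefSeq promoters read from 250 bases before to 50 after the gene start. It lay in 2 of the 9 promoters found for the 12 genes with the largest falls.

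The largest rises were matrix proteases, an enzyme of hyaluronan synthesis, inflammatory and nucleolar genes, and a tropomyosin. MMP3, stromelysin, had 5.27, 3.53 and 3.41 CPM in the NC libraries and 28.7, 19.6 and 17.2 CPM after knockdown (log2 fold change 2.43, SE 0.21, edgeR adjusted P = 1.08e-05), and MMP1, interstitial collagenase, had 61.6, 64.7 and 60.9 CPM in the NC libraries and 185, 182 and 174 CPM after knockdown (log2 fold change 1.53, SE 0.047, edgeR adjusted P = 3.82e-09). HAS2, which makes hyaluronan, had 1.10, 1.91 and 1.96 CPM in the NC libraries and 7.48, 6.31 and 7.53 CPM after knockdown (log2 fold change 2.09, SE 0.21, edgeR adjusted P = 2.81e-05). The rises too were named among genes whose groups did not overlap. NOLC1, a nucleolar chaperone of small nucleolar RNPs, had 195, 165 and 172 CPM in the NC libraries and 549, 556 and 556 CPM after knockdown (log2 fold change 1.64, SE 0.058, edgeR adjusted P = 1.25e-08). TPM4, a tropomyosin of actin filaments, had 354, 386 and 385 CPM in the NC libraries and 1102, 1108 and 1127 CPM after knockdown (log2 fold change 1.57, SE 0.043, edgeR adjusted P = 1.98e-09). Both were already abundant in NC. CYP1B1, a cytochrome P450 of oestrogen and hydrocarbon metabolism, rose by 2.05, TFPI2, a secreted protease inhibitor, by 1.99, PTGS2, the inducible prostaglandin synthase, by 1.95, HIST1H2BD, a histone H2B gene, by 1.58 and SIGLEC15, a sialic acid-binding receptor, by 1.55, with edgeR adjusted P values up to 0.000124.

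**Figure D3:**
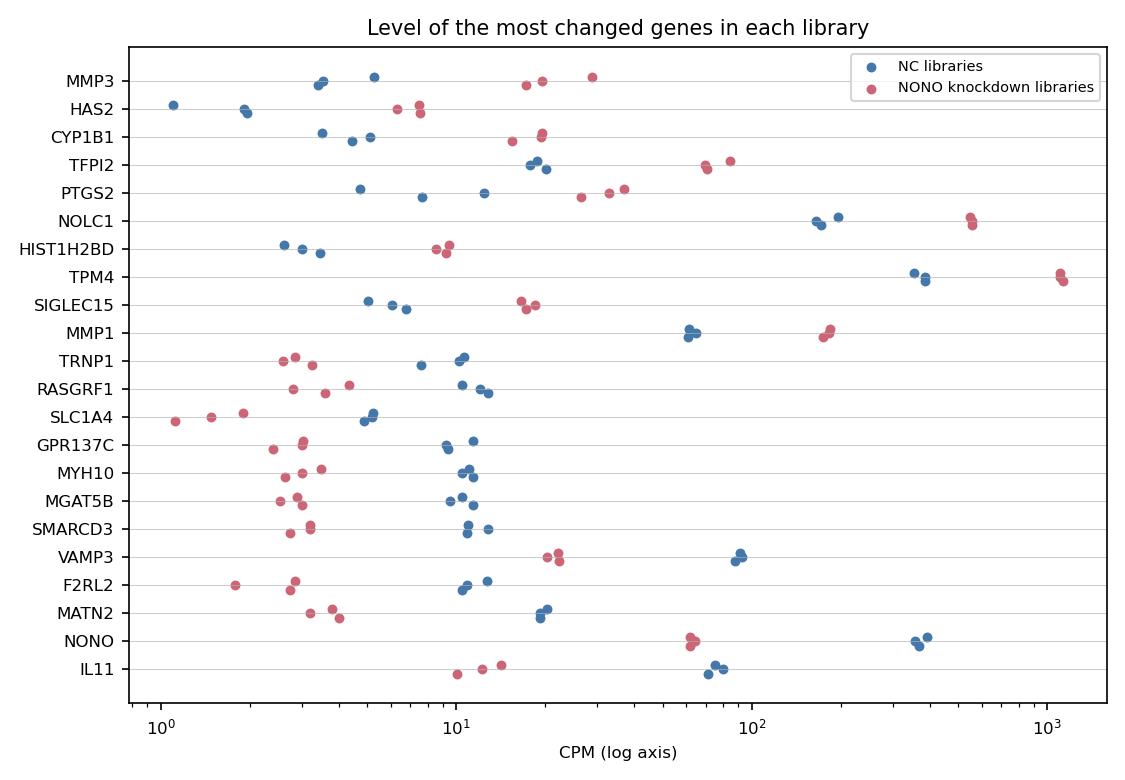
Level in each library (CPM, log axis) of NONO and of the genes with the largest falls and rises, with blue points for the 3 NC and red points for the 3 knockdown libraries. The genes were chosen not to overlap between the groups, and their levels run from SLC1A4 at 1.12 to 5.22 CPM to TPM4 at 354 to 1127 CPM.

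The largest rise belonged to AL035461.3 (ENSG00000286235), a gene absent from GENCODE 29, and it is uncertain. It had 0.753, 0 and 0 CPM in the NC libraries and 2.34, 12.1 and 13.5 CPM after knockdown (log2 fold change 5.23, SE 0.85, edgeR adjusted P = 0.000772). The file describes its product as a fusion of an MCM8-like part with a phosphatidyltransferase domain. MCM8, a helicase of recombination, had 83.9, 82.2 and 89.0 CPM in NC and 76.6, 76.4 and 75.8 CPM after knockdown, and CRLS1, cardiolipin synthase, had 30.6, 25.6 and 24.2 against 23.1, 16.8 and 13.2 CPM. Summed over the 3 genes the levels were 115, 108 and 113 CPM in NC and 102, 105 and 102 CPM after knockdown. The sum thus moved little while AL035461.3 rose, and how the authors' counting split reads between the 3 genes was not tested.

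The lists of genes differed in how many of their members were raised or lowered. The background for each list below is the share over all genes tested, 17.2% lowered and 16.2% raised. Cell cycle and ribosomal protein genes had many raised members, and cholesterol, NRF2, YAP/TAZ, p53 and IL6-family genes had many lowered ones. The proteasome, the respiratory chain, glycolysis, the clock and mitochondrial ribosomes lay near the shares over all genes or under them with all 6 libraries, and several of these counts moved when 1 library was left out.

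**Figure D4:**
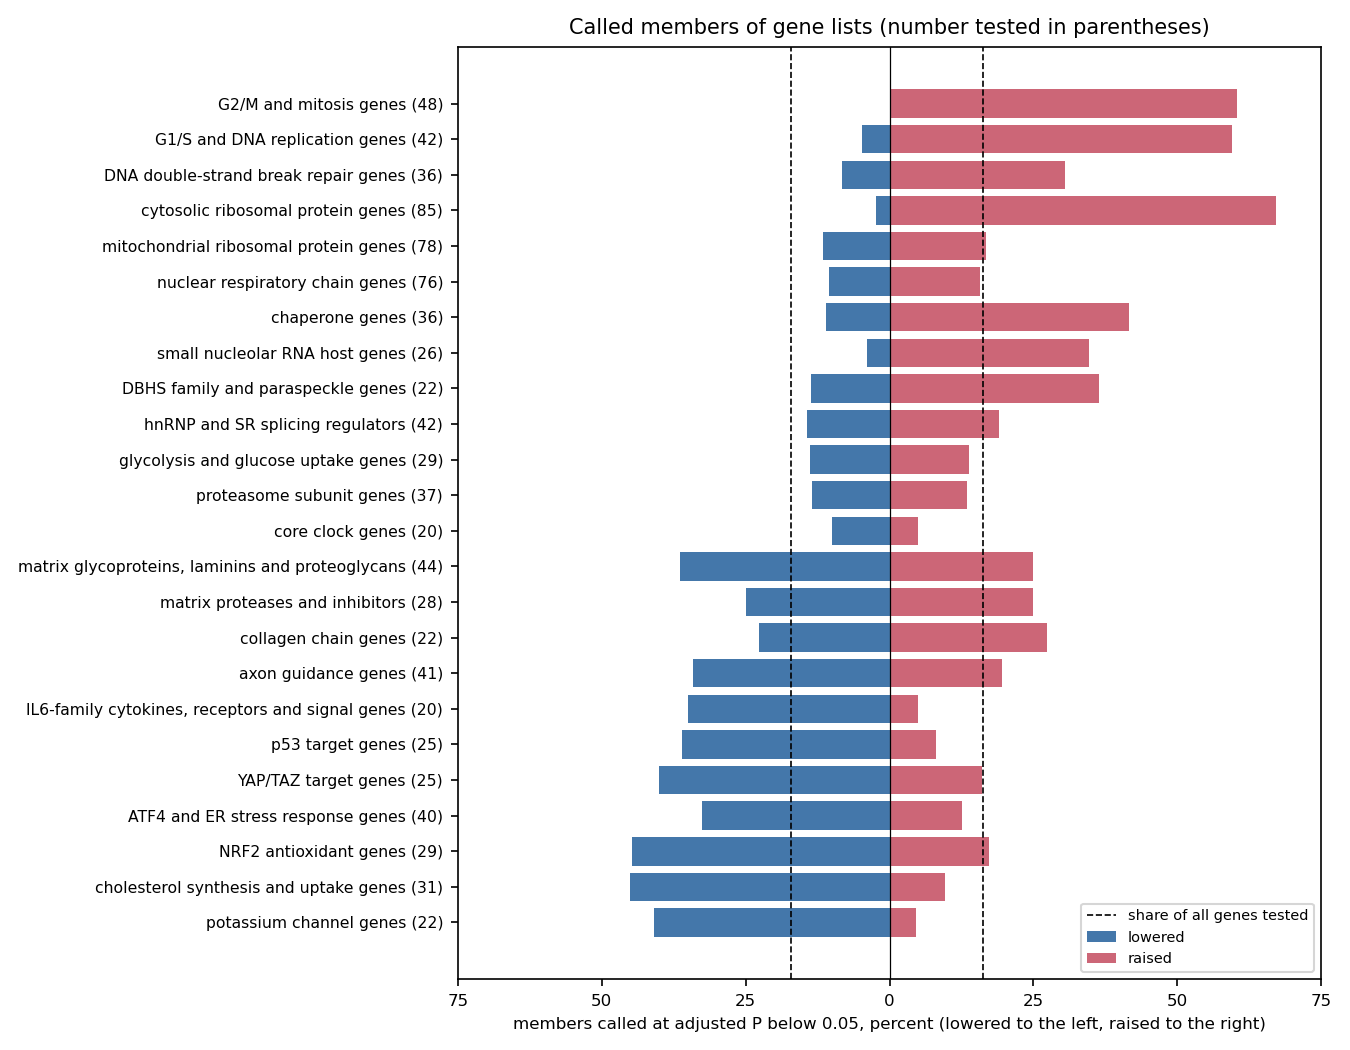
Share of the tested members of each list that were lowered (blue, to the left) or raised (red, to the right), in percent, with dashed lines at the shares over all genes tested (17.2% and 16.2%). Ribosomal protein genes reach 67.1% raised, G2/M genes 60.4% and G1/S genes 59.5%, while cholesterol genes reach 45.2% lowered and NRF2 genes 44.8%.

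More of the genes that drive the cell cycle were raised than lowered, by small amounts, and in bulk RNA a larger share of cycling cells cannot be told apart from more RNA per cell. Of 42 genes of the G1/S transition and DNA replication, 25 were raised and 2 lowered, with a median of 0.24 on the log2 scale. In the highest quintile of levels 14 of 20 were raised, beside 36.9% of all protein-coding genes there. Among the MCM helicase that opens replication origins, MCM6 had 127, 119 and 117 CPM in the NC libraries and 180.3, 179.8 and 192 CPM after knockdown (log2 fold change 0.60, SE 0.048, edgeR adjusted P = 5.50e-06) and MCM3 had 384, 345 and 344 CPM in the NC libraries and 516, 528 and 526 CPM after knockdown (log2 fold change 0.55, SE 0.048, edgeR adjusted P = 9.71e-06). Both separated the groups, as did PCNA, the sliding clamp of DNA polymerases, at 132, 126 and 119 against 160.2, 167 and 166 CPM (0.39, adjusted P = 1.21e-04). MCM2 and MCM5 rose by 0.49 and 0.34, GINS2, of the same helicase complex, by 0.50, and the transcription factors E2F1 and E2F2 by 0.45 and 0.72. The 2 exceptions were CCNE1, cyclin E1, at 6.83, 5.48 and 6.45 against 3.34, 3.56 and 3.05 CPM (-0.91, adjusted P = 0.00102), and FEN1, the flap nuclease of lagging-strand synthesis, at 245, 202 and 205 against 152, 158 and 154 CPM (-0.49, adjusted P = 2.50e-04). Cyclin E2 was not called (CCNE2, -0.32, adjusted P = 0.0783, edgeR).

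Of 48 genes of G2/M and mitosis 29 were raised and 0 lowered in edgeR's test, with a median of 0.15. At an unadjusted P below 0.05 edgeR lowered 1 of them, DESeq2 lowered 0 and limma on log2(TPM + 1) lowered 1. In the highest quintile 21 of 33 were raised. With limma on log2(TPM + 1) 12 G2/M genes and 14 G1/S genes were raised. The G2/M count depended on single libraries, at 19 without knockdown library 2, 19 without knockdown library 3, 19 without NC library 3 and 34 without NC library 1. BIRC5, survivin of the chromosomal passenger complex, had 85.8, 76.6 and 78.7 CPM in the NC libraries and 114, 117 and 119.9 CPM after knockdown (log2 fold change 0.54, SE 0.052, edgeR adjusted P = 1.98e-05). CENPA, the centromere histone, had 15.1, 17.6 and 16.7 CPM in the NC libraries and 22.9, 23.7 and 24.5 CPM after knockdown (log2 fold change 0.52, SE 0.083, edgeR adjusted P = 6.42e-04). AURKB, the kinase of the passenger complex, had 79.04, 80.2 and 80.5 CPM in the NC libraries and 107, 105 and 110.4 CPM after knockdown (log2 fold change 0.43, SE 0.043, edgeR adjusted P = 3.13e-05). No NC library reached a knockdown library in these 3 genes. CDC25B, a phosphatase that activates CDK1, rose by 0.36, CCNB1, cyclin B1, by 0.21, and the proliferation marker MKI67 by 0.16 (edgeR adjusted P = 0.0322). CDK1 itself, PLK1 and AURKA were not called, at -0.02, 0.10 and 0.06.

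Many mitotic genes share the CHR element near their start, a word through which the DREAM complex holds them off outside G2 and mitosis. The word TTTGAA, on either strand, lay in 28 of 40 G2/M promoters (70.0%) and in 15.4% of all RefSeq promoters of the same length. It was about as frequent among raised genes, 18 of 26, as among those not called, 10 of 14. The 100 bases before the start of 5 raised genes are given to show where the word stands, in capitals (RefSeq, GRCh38.p14, 5′ to 3′ on the gene's plus strand): CENPA at chr2:26785956-26786055, BUB1B at chr15:40160969-40161068, KIF4A at chrX:70290004-70290103, CDCA8 at chr1:37692416-37692515 and GTSE1, with the reverse complement, at chr22:46296770-46296869.
CENPA: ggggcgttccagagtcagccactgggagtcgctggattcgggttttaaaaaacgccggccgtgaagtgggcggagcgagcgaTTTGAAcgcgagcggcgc
BUB1B: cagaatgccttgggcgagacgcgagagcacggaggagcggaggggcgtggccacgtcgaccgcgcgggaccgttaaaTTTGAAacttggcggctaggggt
KIF4A: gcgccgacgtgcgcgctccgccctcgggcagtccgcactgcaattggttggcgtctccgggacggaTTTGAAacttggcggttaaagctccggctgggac
CDCA8: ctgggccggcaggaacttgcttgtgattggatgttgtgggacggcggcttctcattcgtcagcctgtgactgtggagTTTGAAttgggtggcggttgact
GTSE1: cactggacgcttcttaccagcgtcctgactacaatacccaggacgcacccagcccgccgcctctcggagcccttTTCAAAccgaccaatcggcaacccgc
The word starts 18 to 34 bases before the gene start in these 5. BUB1B, a spindle checkpoint kinase, rose by 0.33, KIF4A, a chromosome-bound motor, by 0.29, CDCA8, of the passenger complex, by 0.24 and GTSE1, which stabilizes spindle microtubules, by 0.23 (edgeR adjusted P up to 0.0162). AURKB and CDC25B rose without the word in this window.

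DNA double-strand break repair, in which NONO and SFPQ act with Ku, was raised more often than lowered, with a median of 0.13. Of 36 genes 11 were raised (30.6%) and 3 lowered (8.33%). Without NC library 1, 20 were raised. RAD54L and XRCC2, of homologous recombination, rose by 0.51 and 0.38, and the checkpoint kinase CHEK1 had 70.9, 72.3 and 72.3 CPM in the NC libraries and 99.9, 94.2 and 100.2 CPM after knockdown (log2 fold change 0.45, SE 0.046, edgeR adjusted P = 3.27e-05). Of the end-joining genes, PRKDC, the DNA-dependent kinase, rose from 714 ± 45.8 to 881 ± 13.7 CPM (log2 fold change 0.30, SE 0.047, edgeR adjusted P = 5.63e-04) and XRCC5, a Ku subunit, by 0.14, while its partner XRCC6 was not called (0.03, adjusted P = 0.75, edgeR). LIG4, the ligase of end joining, had 39.2, 37.3 and 37.3 CPM in the NC libraries and 29.7, 29.5 and 30.5 CPM after knockdown (log2 fold change -0.34, SE 0.060, edgeR adjusted P = 0.00118). TP53BP1, which favours end joining at breaks, fell by 0.29 on the log2 scale.

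Of 25 p53 target genes 9 were lowered (36%) and 2 raised (8%), with a median of -0.19. CDKN1A, the inhibitor of cyclin-dependent kinases, had 127, 119 and 119 CPM in the NC libraries and 55.1, 53.1 and 47.8 CPM after knockdown (log2 fold change -1.23, SE 0.059, edgeR adjusted P = 1.53e-07). PHLDA3, an inhibitor of AKT, had 6.47, 6.34 and 7.43 CPM in the NC libraries and 2.99, 2.85 and 2.70 CPM after knockdown (log2 fold change -1.24, SE 0.15, edgeR adjusted P = 1.07e-04), and TNFRSF10B, a death receptor, fell by 0.44 on the log2 scale (edgeR adjusted P = 0.000176). XPC and BAX were raised by 0.35 and 0.18, but BAX was at -0.04 with limma on log2(TPM + 1). MDM2, the ubiquitin ligase of p53, was not called (0.12, adjusted P = 0.0674, edgeR). Among 17 BCL2-family genes 5 were raised and 0 lowered in edgeR's test, with 1 lowered at an unadjusted P below 0.05, 0 lowered by DESeq2 or limma and 3 lowered without NC library 1. They were the death genes PMAIP1, BOK and BCL2L11 at 0.49, 0.41 and 0.33, and the survival genes BCL2L1 and BCL2L2 at 0.33 and 0.41.

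Replication-dependent histone genes are mostly without a poly(A) tail, and only 20 of 89 could be tested, of which 5 were raised and 1 lowered, with a median of 0.40. Without knockdown library 1, 3 were raised. HIST1H2BD had 2.61, 3.004 and 3.46 CPM in the NC libraries and 9.43, 8.54 and 9.25 CPM after knockdown (log2 fold change 1.58, SE 0.15, edgeR adjusted P = 1.55e-05). HIST1H2AC had 7.58, 6.96 and 6.40 CPM in the NC libraries and 15.7, 13.6 and 12.7 CPM after knockdown (log2 fold change 1.00, SE 0.12, edgeR adjusted P = 9.60e-05), and HIST1H2BK had 10.8, 11.4 and 11.4 CPM in the NC libraries and 18.1, 19.6 and 20.7 CPM after knockdown (log2 fold change 0.80, SE 0.089, edgeR adjusted P = 6.34e-05). Neither HIST1H2AC nor HIST1H2BK overlapped between the groups. The single lowered gene, HIST2H4B, is near-identical to HIST2H4A, and summed over both the levels were 1.91, 2.19 and 2.52 CPM in NC and 3.24, 2.14 and 2.49 CPM after knockdown, so its fall is uncertain.

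Most genes of the cytosolic ribosome were raised, by small amounts. Of 85 ribosomal protein genes 57 were raised and 2 lowered, with a median of 0.17, and 80 lay above 0. In the highest quintile of levels 52 of 76 were raised, beside 36.9% of all protein-coding genes there. RPL11, which also binds MDM2, had 269, 249 and 265 CPM in the NC libraries and 347, 360.3 and 371 CPM after knockdown (log2 fold change 0.46, SE 0.045, edgeR adjusted P = 2.36e-05). RPLP1, of the ribosomal stalk, had 373, 375 and 373 CPM in the NC libraries and 477, 487 and 493 CPM after knockdown (log2 fold change 0.38, SE 0.036, edgeR adjusted P = 2.18e-05), and RPS12 had 256, 261 and 261 CPM in the NC libraries and 335, 343 and 326 CPM after knockdown (log2 fold change 0.37, SE 0.039, edgeR adjusted P = 4.18e-05). Each separated the groups. With limma on log2(TPM + 1) 27 were raised and the median was 0.10. The exceptions were RPL4, at 1009, 946 and 957 against 742, 759 and 768 CPM (-0.36, adjusted P = 4.87e-05, edgeR), and RPL36AL, a copy of another ribosomal gene, at -0.23. Ribosomal protein genes have many pseudogenes, and how reads shared with them were counted is not stated. Host genes of small nucleolar RNAs, which carry the guides of ribosomal RNA modification in their introns, were raised in 9 of 26 and lowered in 1, with a median of 0.16. ZFAS1, SNHG12 and SNHG3 rose by 0.48, 0.46 and 0.44, and GAS5 by 0.15.

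Of 36 chaperone genes 15 were raised and 4 lowered, with a median of 0.08, or 0.00 with limma on log2(TPM + 1), where 5 were raised. In the highest quintile of levels 13 of 27 were raised, beside 36.9% of all protein-coding genes there. The raised count was 8 without knockdown library 2, 8 without knockdown library 3, 9 without NC library 2 and 9 without NC library 3. HSPD1, the mitochondrial chaperonin, had 829.6, 678 and 696 CPM in the NC libraries and 965, 978 and 1010.3 CPM after knockdown (log2 fold change 0.42, SE 0.066, edgeR adjusted P = 5.56e-04). HSP90AA1, the inducible HSP90, had 2299, 1951 and 2044 CPM in the NC libraries and 2666, 2636 and 2726 CPM after knockdown (log2 fold change 0.35, SE 0.053, edgeR adjusted P = 4.76e-04), and CCT5, a subunit of the chaperonin that folds actin and tubulin, had 647, 552 and 574 CPM in the NC libraries and 736, 764 and 771 CPM after knockdown (log2 fold change 0.36, SE 0.055, edgeR adjusted P = 5.33e-04). NC library 1 lay above the other NC libraries in these 3 genes and below all knockdown libraries. HSPA8, the constitutive HSP70, was separated by a narrow margin, at 2402, 1749 and 1861 against 2441, 2489 and 2582 CPM (0.32, adjusted P = 0.0187, edgeR). HSPA4L, BAG3 and DNAJB6 were lowered, at -0.34, -0.19 and -0.23.

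Proteasome, respiratory chain and mitochondrial ribosomal protein genes had called shares near those over all genes tested, 17.2% lowered and 16.2% raised, or under them. Of 37 proteasome subunits 5 were lowered and 5 raised, the latter among 27 in the highest quintile, and PSMA1 was among the lowered, at 220.3, 203 and 199 against 129, 131 and 133 CPM (-0.66, adjusted P = 2.81e-06, edgeR). Of 76 nuclear genes of the respiratory chain 8 were lowered and 12 raised, among the former ATP5F1D, of the ATP synthase, at 116, 108 and 99.5 against 75.2, 65.4 and 58.9 CPM (-0.70, adjusted P = 9.57e-05). Of 13 protein genes of the mitochondrial genome 1 was lowered and 3 raised, MT-CO1 by 0.19. Of 78 mitochondrial ribosomal protein genes 9 were lowered and 13 raised, none by more than 0.42 on the log2 scale. Of 39 aminoacyl-tRNA synthetases 7 were lowered and 9 raised, and of 49 lysosome and V-ATPase genes 11 and 10. The lysosomal protease CTSB had 216, 257 and 259.97 CPM in the NC libraries and 504, 509 and 482 CPM after knockdown (log2 fold change 1.03, SE 0.064, edgeR adjusted P = 1.06e-06). Leaving out 1 library moved several of these counts. Without NC library 1, there were 24 raised mitochondrial ribosomal genes, 17 raised synthetases, 9 raised proteasome genes and 4 lowered genes of the mitochondrial genome. Without knockdown library 2 the raised were 6 in the respiratory chain and 2 in the proteasome, without knockdown library 3 they were 7 and 2 and 6 among lysosome genes, and without knockdown library 1 the lowered were 5 in the respiratory chain, 5 among mitochondrial ribosomal genes and 2 among synthetases.

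Of 10 genes of voltage-dependent anion channels of the outer mitochondrial membrane and their partners, 6 were lowered (60%) and 1 raised (10%). The median was -0.27. VDAC1 had 358, 318 and 332 CPM in the NC libraries and 154, 157 and 169 CPM after knockdown (log2 fold change -1.07, SE 0.055, edgeR adjusted P = 2.34e-07), and VDAC2 fell by 0.31 and VDAC3 was not called (0.04, adjusted P = 0.622, edgeR). The bound hexokinases HK2 and HK1 fell by 0.44 and 0.23. SLC25A5, an adenine nucleotide carrier, was the raised gene (0.20), with 4 raised without NC library 1, while its relative SLC25A4 was lowered (-0.38).

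The extracellular matrix and its proteases changed in both directions. Of 28 matrix metalloproteinases, ADAMTS proteases and inhibitors 7 were lowered and 7 raised, with 4 of the lowered ones left without knockdown library 3 and 4 without NC library 2. Beside MMP1 and MMP3, MMP14, the membrane-bound activator of other proteases, had 256, 295 and 290.4 CPM in the NC libraries and 433, 427 and 407 CPM after knockdown (log2 fold change 0.59, SE 0.055, edgeR adjusted P = 1.78e-05), and TIMP3, a matrix-bound inhibitor, had 153, 173 and 174 CPM in the NC libraries and 338, 320.4 and 301 CPM after knockdown (log2 fold change 0.94, SE 0.059, edgeR adjusted P = 1.06e-06). ADAMTSL4, which binds fibrillin, had 47.6, 52.4 and 50.99 CPM in the NC libraries and 17.8, 18.5 and 14.9 CPM after knockdown (log2 fold change -1.56, SE 0.084, edgeR adjusted P = 3.28e-07). None of these 3 overlapped between the groups. PLAT, tissue plasminogen activator, fell by 0.60, while PLAU, urokinase, and its receptor PLAUR were not called, at 0.15 and -0.05. TIMP1 and TIMP2 were not called either, at 0.09 and 0.02.

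Of 44 matrix glycoproteins, laminins and proteoglycans 16 were lowered and 11 raised, with a median of -0.08. Without knockdown library 3, 10 were lowered, and without knockdown library 2, 5 were raised. MATN2 led the falls, followed by FBLN5, of elastic fibres, at -0.95, EFEMP1, another fibulin, at -0.89, and GPC1, a heparan sulfate proteoglycan, which had 25.3, 25.5 and 23.98 CPM in the NC libraries and 13.8, 13.98 and 13.5 CPM after knockdown (log2 fold change -0.86, SE 0.076, edgeR adjusted P = 1.14e-05). TNC, tenascin-C, rose from 252 ± 10.9 to 339.9 ± 12.9 CPM (log2 fold change 0.43, SE 0.046, edgeR adjusted P = 4.98e-05). Fibronectin (FN1) was not called, with NC library 1 at 299 CPM against 382 and 377 CPM (0.17, adjusted P = 0.134, edgeR). Of 22 collagen chain genes 5 were lowered, 8 without NC library 1, and 6 raised. COL1A1 fell by 0.72 and COL12A1 by 0.39, and COL8A1 had 61.4, 69.3 and 65.8 CPM in the NC libraries and 107, 113 and 112 CPM after knockdown (log2 fold change 0.76, SE 0.053, edgeR adjusted P = 2.45e-06).

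Of 38 genes of integrins and focal adhesions 11 were lowered (28.9%) and 9 raised (23.7%), beside 17.2% and 16.2% of all genes tested. In the highest quintile of levels 7 of 23 were lowered and 5 raised, beside 16.3% and 36.9% of all protein-coding genes there. FERMT2, kindlin-2, which activates integrins, had 177, 165 and 164 CPM in the NC libraries and 91.01, 93.5 and 95.1 CPM after knockdown (log2 fold change -0.86, SE 0.046, edgeR adjusted P = 3.50e-07). MCAM, a melanoma-associated adhesion molecule, had 188, 174 and 173 CPM in the NC libraries and 106, 104 and 101.3 CPM after knockdown (log2 fold change -0.78, SE 0.047, edgeR adjusted P = 7.29e-07). ITGB1, the most shared integrin beta chain, rose from 2150.1 ± 41.1 to 2836 ± 32.3 CPM (log2 fold change 0.40, SE 0.033, edgeR adjusted P = 6.61e-06). The groups of all 3 stood apart. ITGB4 and ITGA10 were raised too, but NC library 1 was far below its replicates, at 6.52 against 20.6 and 20.1 CPM for ITGB4 and 1.51 against 4.82 and 6.26 CPM for ITGA10. Of 22 genes of cadherins and the epithelial-mesenchymal transition 8 were lowered (36.4%) and 5 raised (22.7%, 3 genes without knockdown library 1 or 2). In all, 11 of the 22 lay above 0. The tight junction genes CLDN3, CLDN1 and CLDN4 fell by 1.57, 0.89 and 0.88, and the mesenchymal filament gene VIM had 4416, 4537 and 4488 CPM in the NC libraries and 5452, 5538 and 5368 CPM after knockdown (log2 fold change 0.28, SE 0.031, edgeR adjusted P = 5.55e-05). The transcription factors SNAI2 and ZEB1 rose by 0.63 and 0.15. Only part of this list is named here, and a shift between epithelial and mesenchymal states was not tested.

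Of 41 axon guidance genes, which tumour cells use in migration, 14 were lowered (34.1%) and 8 raised (19.5%), with a median of -0.04. The raised numbered 5 without any 1 of the knockdown libraries. ROBO1, a receptor of Slit ligands, had 34.03, 34.9 and 36.8 CPM in the NC libraries and 18.5, 18.001 and 18.6 CPM after knockdown (log2 fold change -0.94, SE 0.068, edgeR adjusted P = 3.00e-06), and its ligand SLIT2 had 75.4, 70.2 and 70.2 CPM in the NC libraries and 126, 119 and 119 CPM after knockdown (log2 fold change 0.75, SE 0.049, edgeR adjusted P = 1.47e-06). The receptor fell and the ligand rose with no overlap. NTN4, a netrin, had 15.2, 22.3 and 18.6 CPM in the NC libraries and 34.7, 36.5 and 33.8 CPM after knockdown (log2 fold change 0.91, SE 0.11, edgeR adjusted P = 1.34e-04). Of 44 cytoskeleton genes 14 were lowered (31.8%), 9 without knockdown library 2, and 9 raised (20.5%). Apart from MYH10 and TPM4, the tubulin gene TUBB2A had 72.2, 56.4 and 62.4 CPM in the NC libraries and 36.7, 39.4 and 37.1 CPM after knockdown (log2 fold change -0.75, SE 0.083, edgeR adjusted P = 5.92e-05), and the actin-binding peptides TMSB4X and TMSB10 rose by 0.48 and 0.40. Of 12 metastasis suppressor genes 5 were lowered and 2 raised (5 without NC library 1). KISS1, the kisspeptin precursor, had 66.6, 62.3 and 60.2 CPM in the NC libraries and 26.2, 25.4 and 28.3 CPM after knockdown (log2 fold change -1.24, SE 0.065, edgeR adjusted P = 3.00e-07). CD82, a tetraspanin, had 33.2, 35.6 and 37.5 CPM in the NC libraries and 19.1, 18.7 and 14.3 CPM after knockdown (log2 fold change -1.03, SE 0.10, edgeR adjusted P = 2.92e-05).

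In the IL6 family 7 of 20 genes were lowered and 1 raised, with a median of -0.13, and 11 were lowered without NC library 1. Beside the ligand IL11, the ligand CLCF1 fell by 0.40, while LIF was not called (-0.09, adjusted P = 0.565, edgeR). The receptor LIFR had 57.9, 66.8 and 65.8 CPM in the NC libraries and 33.2, 31.7 and 31.9 CPM after knockdown (log2 fold change -0.97, SE 0.066, edgeR adjusted P = 1.84e-06), and IL6ST, the shared signal chain, was not called (-0.05, adjusted P = 0.432). The feedback inhibitors SOCS1 and SOCS3 fell by 2.23 and 0.32, SOCS1 at only 2.06, 2.003 and 2.62 against 0.648, 0.509 and 0.254 CPM. STAT3, the transcription factor downstream, was the raised gene, at 161, 162 and 154 CPM in the NC libraries and 214, 218 and 223 CPM after knockdown (log2 fold change 0.46, SE 0.042, edgeR adjusted P = 1.48e-05). IL6 had 13.1, 35.9 and 31.1 CPM in NC and 24.3, 17.0 and 12.2 CPM after knockdown, with overlapping groups (-0.59, adjusted P = 0.179, edgeR).

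Inflammatory genes moved apart from each other. Of 28 chemokines and inflammatory cytokines 3 were lowered (7 without NC library 1) and 8 raised (5 without knockdown library 1), with a median of 0.26. PTGS2 had 4.72, 12.4 and 7.67 CPM in the NC libraries and 37.002, 32.9 and 26.5 CPM after knockdown (log2 fold change 1.95, SE 0.24, edgeR adjusted P = 1.24e-04), and CSF3, a neutrophil growth factor, had 34.8, 44.7 and 40.2 CPM in the NC libraries and 80.3, 77.2 and 73.5 CPM after knockdown (log2 fold change 0.95, SE 0.080, edgeR adjusted P = 8.00e-06). NFKBIA, the inhibitor of NF-kB, rose by 0.61 and NFKB1 by 0.41. IL1B was lowered, with NC library 1 at 237 CPM near the knockdown range of 194 to 245 CPM and the other NC libraries at 458 and 408 CPM (-0.73, adjusted P = 0.0102, edgeR). CXCL8 was not called (0.17, adjusted P = 0.335, edgeR). Of 36 interferon-stimulated genes 6 were lowered (16.7%), 11 without NC library 1, and 8 raised (22.2%). IFIT1, IFIT2 and IFI44 rose by 0.80, 0.57 and 0.97, and PARP14 and IFIT5 fell by 0.59 and 0.56. Immediate early genes gave 5 raised and 1 lowered of 22, but the lowered numbered 6 without NC library 1, 3 without NC library 3 and 2 without knockdown library 1, with KLF6 at 126, 146 and 144 against 231, 236 and 221 CPM (0.73, adjusted P = 4.49e-06, edgeR), while JUN and MYC were not called, at log2 fold changes of 0.00 and -0.03.

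Of 25 YAP/TAZ target genes 10 were lowered (40%) and 4 raised (16%), with a median of -0.15. ANKRD1 had 1173, 991 and 999 CPM in the NC libraries and 489, 476 and 483 CPM after knockdown (log2 fold change -1.13, SE 0.060, edgeR adjusted P = 3.17e-07). CCN2, connective tissue growth factor, had 666, 772 and 673 CPM in the NC libraries and 349.8, 342 and 322 CPM after knockdown (log2 fold change -1.06, SE 0.059, edgeR adjusted P = 4.24e-07). GADD45A, a stress gene, had 50.5, 80.005 and 69.1 CPM in the NC libraries and 30.7, 28.5 and 26.5 CPM after knockdown (log2 fold change -1.22, SE 0.14, edgeR adjusted P = 6.33e-05). Each separated the groups. The related target CCN1 was not called, at 721, 979 and 912 against 1049, 949 and 902 CPM (0.15, adjusted P = 0.247, edgeR), and LATS2, a kinase that restrains YAP, rose by 0.45. Of 41 TGF-beta and BMP genes 11 were lowered (26.8%) and 8 raised (19.5%). The lowered numbered 6 without knockdown library 3 or NC library 3, and 7 without NC library 2. The receptors TGFBR1 and TGFBR2 rose by 0.55 and 0.52, and the mediator SMAD3 fell by 0.41. Of 34 Wnt genes 7 were lowered (20.6%) and 6 raised (17.6%). WNT7B, a ligand, had 7.68, 9.11 and 8.83 CPM in the NC libraries and 18.3, 15.7 and 16.6 CPM after knockdown (log2 fold change 0.98, SE 0.11, edgeR adjusted P = 4.93e-05), and KREMEN1, an inhibitory co-receptor, had 8.83, 12.4 and 11.3 CPM in the NC libraries and 5.59, 5.19 and 4.73 CPM after knockdown (log2 fold change -1.07, SE 0.15, edgeR adjusted P = 2.70e-04). Of 29 EGFR-family and ERK feedback genes 8 were lowered, 5 without knockdown library 1 or 3 or NC library 2 or 3, and 4 raised. EGFR had 555, 532 and 552 CPM in the NC libraries and 406, 409 and 416 CPM after knockdown (log2 fold change -0.41, SE 0.038, edgeR adjusted P = 1.42e-05), and the phosphatase DUSP4 rose by 0.43.

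Genes of cholesterol synthesis and uptake were lowered in 14 of 31 and raised in 3 (0 or 1 without any 1 of the knockdown libraries), with a median of -0.12. TM7SF2, a sterol reductase, had 14.9, 17.7 and 17.2 CPM in the NC libraries and 12.2, 6.97 and 7.78 CPM after knockdown (log2 fold change -0.89, SE 0.17, edgeR adjusted P = 0.00257). MSMO1, a demethylating oxidase, had 79.3, 88.7 and 82.5 CPM in the NC libraries and 55.9, 47.04 and 47.7 CPM after knockdown (log2 fold change -0.73, SE 0.071, edgeR adjusted P = 2.23e-05). HSD17B7, a ketosteroid reductase of the same pathway, had 19.7, 23.9 and 22.6 CPM in the NC libraries and 15.1, 12.5 and 13.4 CPM after knockdown (log2 fold change -0.69, SE 0.10, edgeR adjusted P = 4.03e-04). Knockdown libraries lay below all NC libraries in each of these. The regulator SREBF2 fell by 0.21, while INSIG1, which holds SREBP back, was not called, at 0.40, and had its lowest level in NC library 1. Fatty acid synthesis gave 5 lowered (3 without knockdown library 2) and 4 raised of 21, with FADS3, a desaturase-family gene, at 172, 183 and 164 against 100.5, 100.6 and 100.02 CPM (-0.79, adjusted P = 9.61e-07, edgeR), and FASN and SCD not called (-0.08 and 0.07).

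Of 29 NRF2 antioxidant genes 13 were lowered (44.8%) and 5 raised (17.2%, 3 genes without knockdown library 2), with a median of -0.14. MGST1, a microsomal glutathione transferase, had 163, 152 and 152 CPM in the NC libraries and 73.6, 75.1 and 73.2 CPM after knockdown (log2 fold change -1.07, SE 0.046, edgeR adjusted P = 5.71e-08). GCLM, which regulates glutathione synthesis, had 93.8, 66.03 and 69.3 CPM in the NC libraries and 42.2, 43.2 and 41.5 CPM after knockdown (log2 fold change -0.85, SE 0.11, edgeR adjusted P = 1.82e-04), and its catalytic partner GCLC fell by 0.42. HMOX1, haem oxygenase, had 26.3, 21.7 and 22.01 CPM in the NC libraries and 12.2, 13.02 and 11.5 CPM after knockdown (log2 fold change -0.93, SE 0.099, edgeR adjusted P = 4.64e-05). Groups did not overlap in any of them, and KEAP1, which restrains NRF2, rose by 0.33. NQO1 was not called (-0.07, adjusted P = 0.356, edgeR).

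Of 40 genes of the ATF4 and ER stress response 13 were lowered (32.5%) and 5 raised (12.5%), with a median of -0.11. Without NC library 1, 20 were lowered, and the raised count was 2 or 3 without knockdown libraries 1, 2 or 3 or NC library 3. CEBPB had 144, 148 and 94.1 CPM in the NC libraries and 66.4, 49.2 and 35.6 CPM after knockdown (log2 fold change -1.35, SE 0.20, edgeR adjusted P = 4.26e-04), ASNS, asparagine synthetase, had 35.7, 65.3 and 49.9 CPM in the NC libraries and 31.9, 31.5 and 23.5 CPM after knockdown (log2 fold change -0.80, SE 0.18, edgeR adjusted P = 0.006), and CHAC1, which breaks down glutathione, fell by 0.76. CEBPB was also low in NC library 3, and ASNS in NC library 1. The glutamine carrier SLC38A2 rose by 0.51, and ATF4 and HSPA5 were not called, at 0.07 and -0.05. Of 18 amino acid transporters 6 were lowered (3 without knockdown library 2 or 3 or NC library 3) and 3 raised. Of 24 hypoxia genes 3 were lowered and 8 raised (4 without knockdown library 1 or 2), and several had NC library 1 apart: HIF1A stood at 500 against 812 and 752 CPM in NC and at 463 to 495 CPM after knockdown. VEGFA was not called (0.18, adjusted P = 0.463, edgeR).

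Of 29 genes of glycolysis and glucose uptake 4 were lowered and 4 raised, with a median of -0.02. Without NC library 1, 10 were lowered, and without knockdown library 2 or 3, 2 were raised. PFKL, the liver-type phosphofructokinase, had 82.6, 98.6 and 99.7 CPM in the NC libraries and 162, 168 and 155 CPM after knockdown (log2 fold change 0.78, SE 0.068, edgeR adjusted P = 9.71e-06), and PKM, the gene of the pyruvate kinases PKM1 and PKM2, had 2195, 2159 and 2177 CPM in the NC libraries and 2595, 2629.6 and 2579 CPM after knockdown (log2 fold change 0.26, SE 0.032, edgeR adjusted P = 1.22e-04). HK2 was lowered, and LDHA and GAPDH were not called, at -0.02 and -0.01.

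Among the processes NONO is known for, the clock had 2 lowered and 1 raised of 20 genes. Lowered clock genes numbered 6 without NC library 1 and 1 without knockdown library 1 or NC library 3, and 2 were raised without NC library 2. ARNTL and CRY1 fell by 0.32 and 0.29, NR1D2 rose by 0.27, and PER1, PER2, CRY2, NR1D1 and CLOCK were not called. Of 27 cAMP and CREB genes 4 were lowered (7 without NC library 1) and 6 raised (3 without knockdown library 2). The CREB relative ATF1 had 18.4, 18.7 and 18.8 CPM in the NC libraries and 32.1, 32.1 and 31.4 CPM after knockdown (log2 fold change 0.77, SE 0.066, edgeR adjusted P = 8.76e-06), while CREB1 was not called (0.03, adjusted P = 0.669, edgeR). Of 42 hnRNP and SR splicing regulators 6 were lowered and 8 raised, and the 8 were among the 30 in the highest quintile. The raised count lay between 4 without knockdown library 2 or 3 and 16 without NC library 1. CELF2 fell by 0.46 and HNRNPA0 rose by 0.22. Of 15 microRNA processing genes 5 were lowered (3 without knockdown libraries 1, 2 or 3 or NC library 3) and 2 raised. DICER1, which cuts the hairpins, had 157, 144 and 156 CPM in the NC libraries and 107, 112 and 121 CPM after knockdown (log2 fold change -0.43, SE 0.055, edgeR adjusted P = 1.54e-04), and DROSHA, its nuclear counterpart, rose by 0.14.

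Chromatin enzymes held 1 large change. SETD7, a lysine methyltransferase, had 64.2, 64.03 and 63.1 CPM in the NC libraries and 171, 177 and 182 CPM after knockdown (log2 fold change 1.47, SE 0.044, edgeR adjusted P = 3.66e-09), and KDM2A, a histone demethylase, had 97.8, 89.4 and 88.3 CPM in the NC libraries and 153, 161 and 157 CPM after knockdown (log2 fold change 0.77, SE 0.050, edgeR adjusted P = 1.33e-06). In their list 16 of 49 were raised, 10 without knockdown library 2 or 3, and 4 lowered. Of 40 acetyltransferase, deacetylase and bromodomain genes 5 were lowered and 6 raised, 12 without NC library 1, with KAT2B at 22.2, 21.9 and 22.4 against 12.4, 12.5 and 12.8 CPM (-0.82, adjusted P = 1.82e-05, edgeR). Zinc finger genes with ZNF symbols, 451 in all, were lowered in 49 and raised in 70, and without knockdown library 2 the lowered were 31 and without knockdown library 3 the raised were 43. ZNF664 had 75.3, 69.2 and 71.05 CPM in the NC libraries and 132, 144 and 141 CPM after knockdown (log2 fold change 0.95, SE 0.051, edgeR adjusted P = 3.28e-07). Of 56 vesicle coat and Golgi genes 11 moved each way, 6 or 7 in most fits without 1 library, among them KDELR2, a retrieval receptor, at 142, 132 and 138 against 92.2, 92.4 and 90.1 CPM (-0.59, adjusted P = 3.72e-06, edgeR).

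Potassium channel genes lay at low levels, and 22 of 95 could be tested, of which 9 were lowered and 1 raised, with a median of -0.25. With limma on log2(TPM + 1) 1 was lowered. Inward rectifier KCNJ8 had 1.30, 1.81 and 1.54 CPM in the NC libraries and 0.349, 0.153 and 0.102 CPM after knockdown, and the regulatory subunit KCNMB4 had 1.96, 3.72 and 2.76 CPM in the NC libraries and 1.15, 0.915 and 1.22 CPM after knockdown. The groups did not overlap, but the knockdown levels of KCNJ8 rest on few counts, so no fold change is given. In the lowest quintile of protein-coding genes 14.9% were lowered and 3.42% raised.

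Some changes differed from those after PKM2 knockdown of the same line. The difference of the log2 fold changes, tested as an interaction over the 12 libraries, passed an adjusted P below 0.05 in 8416 of 14525 genes (57.9%), so a difference as such was common. The term NONO-specific was kept narrower, for a DEG with an adjusted P below 0.05 after NONO knockdown, a difference past the same threshold, and no call or the opposite call after PKM2 knockdown. This held for 99 genes, 71 lowered and 28 raised, of 412 DEGs tested in both experiments. Of these, 39 were called in the opposite direction after PKM2 knockdown and 60 were not called. Their median difference was -1.63 among the lowered and 2.27 among the raised.

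The 71 NONO-specific falls, and so the 99 genes, include NONO itself, the target of the siRNA. Of the 6 largest falls at 5 CPM or more, those other than NONO are described. VAMP3 was slightly raised by PKM2 knockdown (log2 fold change 0.19, SE 0.054, adjusted P = 0.00887), a difference of -2.24, SE 0.079, adjusted P = 5.31e-13. EIF4EBP2, which binds eIF4E and holds back translation, had 133, 112 and 116 CPM in the NC libraries and 39.05, 39.5 and 36.9 CPM after knockdown (log2 fold change -1.64, SE 0.068, edgeR adjusted P = 4.31e-08) and was not called after PKM2 knockdown (log2 fold change 0.00, SE 0.066, adjusted P = 0.981). NANOS1, a translational repressor, had 6.78, 7.25 and 5.23 CPM in the NC libraries and 1.99, 2.34 and 1.93 CPM after knockdown (log2 fold change -1.62, SE 0.19, edgeR adjusted P = 7.42e-05), against a rise after PKM2 knockdown (log2 fold change 1.11, SE 0.11, adjusted P = 2.42e-06). EIF3A, which lies opposite NANOS1 on the other strand, rose from 592 to 691 CPM (0.22, edgeR adjusted P = 0.0028). TNRC6C, a scaffold of microRNA silencing, had 9.54, 11.6 and 10.9 CPM in the NC libraries and 3.64, 5.09 and 3.46 CPM after knockdown (log2 fold change -1.40, SE 0.16, edgeR adjusted P = 7.43e-05) and rose after PKM2 knockdown (0.83). CTDSPL, a small phosphatase, had 29.2, 25.6 and 29.1 CPM in the NC libraries and 10.97, 10.2 and 9.15 CPM after knockdown (log2 fold change -1.47, SE 0.096, edgeR adjusted P = 1.46e-06), with 0.19 after PKM2 knockdown. EIF4EBP2, NANOS1, TNRC6C and CTDSPL separated the groups of the NONO experiment.

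**Figure D5:**
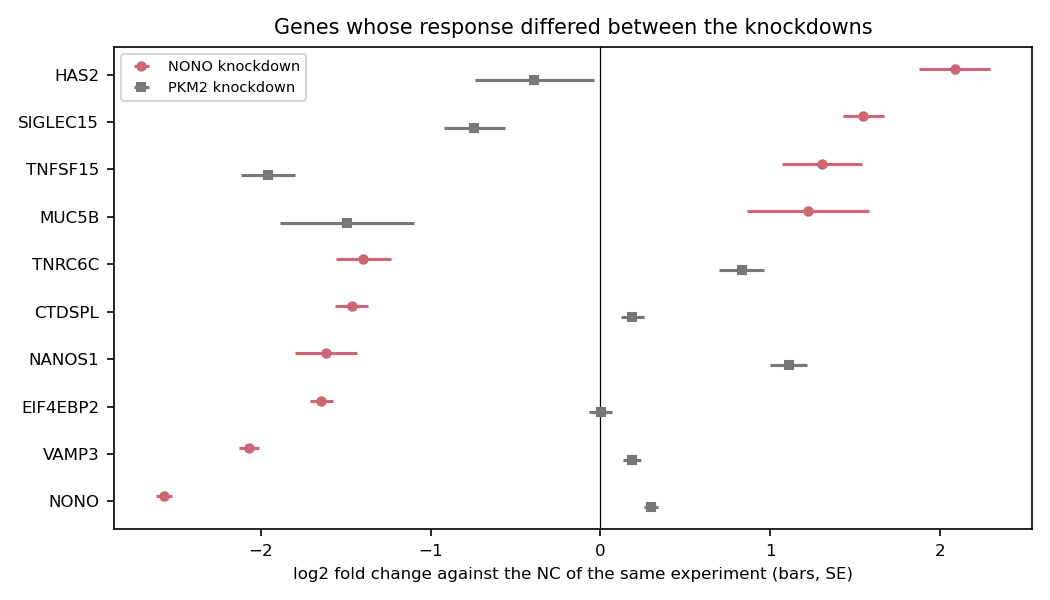
log2 fold change (horizontal axis, bars for the SE) of 10 genes after NONO knockdown (circles) and PKM2 knockdown (squares), each against the 3 NC libraries of its own experiment. The NONO values lie between -2.57 and -1.40 or between 1.22 and 2.09, and the PKM2 values near 0 or on the other side. The genes were chosen by the NONO-specific rule, so this contrast is given by the choice.

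Of the 28 NONO-specific rises, those described here lay at low to moderate level, and the kinds of genes among the others were not examined. HAS2 was not called after PKM2 knockdown (log2 fold change -0.39, SE 0.35, adjusted P = 0.345), a difference of 2.49, SE 0.39, adjusted P = 3.02e-05. In the PKM2 experiment HAS2 had a mean of only 0.684 CPM in NC and 0.523 CPM after knockdown, so its change there is imprecise. SIGLEC15 had 5.02, 6.06 and 6.78 CPM in the NC libraries and 16.6, 18.5 and 17.3 CPM after knockdown and fell after PKM2 knockdown (log2 fold change -0.74, SE 0.18, adjusted P = 0.00313). TNFSF15, a TNF-family ligand, had 12.5, 32.8 and 28.7 CPM in the NC libraries and 66.2, 63.7 and 54.2 CPM after knockdown (log2 fold change 1.31, SE 0.24, edgeR adjusted P = 0.00145) against -1.96 after PKM2 knockdown, a difference of 3.28, SE 0.35, adjusted P = 3.93e-07. MUC5B, a gel-forming mucin, had 0.803, 2.43 and 3.41 CPM in the NC libraries and 4.74, 6.61 and 4.32 CPM after knockdown (log2 fold change 1.22, SE 0.36, edgeR adjusted P = 0.0211), and without knockdown library 2 its edgeR adjusted P was 0.107. In the PKM2 experiment MUC5B was also low, with a mean of 1.14 CPM in NC and 0.402 CPM after knockdown (log2 fold change -1.49, SE 0.40, edgeR adjusted P = 0.00528). TPM4 was not among the 99, since it was also raised after PKM2 knockdown, but far less (log2 fold change 0.14, SE 0.041, adjusted P = 0.00943), a difference of 1.44, SE 0.060, adjusted P = 3.20e-12.

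Within the DBHS family the responses differed as well. SFPQ was not called after PKM2 knockdown (log2 fold change 0.05, SE 0.048, adjusted P = 0.348), a difference of 0.62, SE 0.091, adjusted P = 1.52e-05. NEAT1 fell after PKM2 knockdown (log2 fold change -0.56, SE 0.15, adjusted P = 0.00498), a difference of 1.28, SE 0.19, adjusted P = 1.57e-05. For PSPC1, raised by both, the difference was 0.19, SE 0.093, adjusted P = 0.0836. HNRNPA1 was lowered after PKM2 knockdown, by 0.21 on the log2 scale, and raised after NONO knockdown. The tables of the 2 experiments were made separately with different annotation releases, so only changes against each experiment's own NC, not levels, were compared.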

How the data were processed

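Poly(A)-selected RNA of 3 NC and 3 NONO-knockdown libraries was sequenced as paired Illumina reads. For every gene and library the authors deposited an estimated count, not rounded, and a TPM value. Their table also holds a fold change, its log2 value and P-values of their own comparison, which were not used. The submitters' processing notes name fastp, HISAT2, StringTie, RSEM, DESeq2, edgeR and limma without versions, and the build hg19, although the gene identifiers belong to annotations of GRCh38. GENCODE 29 (GRCh38), used for gene type and location only, held 14696 of the 14832 genes tested (99.1%). Strand in counting and the treatment of reads that match several genes are not given in the sources used here. Columns of library values left unused numbered 0.

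Estimated counts were rounded to whole numbers and fitted within this table with edgeR 4.0.16 (R 4.3.3), by the quasi-likelihood test with TMM factors and filterByExpr at its defaults. CPM values are TMM-scaled, and the SE of a log2 fold change was taken from the F statistic. A gene was called at a Benjamini-Hochberg adjusted P below 0.05 over all genes tested, two-sided. Differences from the PKM2 knockdown were an interaction term in 1 edgeR fit over 12 libraries. Alternatives were DESeq2 1.42.0, RLE factors, no low-count filter, limma 3.58.1 on log2(TPM + 1) or log2(TPM + 0.1) where the mean TPM was at least 1, the former also without that filter, a replicate block, and each library left out. The procedures were tested on simulated data. No set test was run, and lists are given as counts and medians beside those of all genes. For lists the shares over all genes tested, 17.2% lowered and 16.2% raised, are the background.

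The members and lists were chosen with earlier results of these data known. Named genes were NONO, the 12 largest falls and 12 largest rises among DEGs with an adjusted P below 0.05, at least 5 CPM in the higher group and no overlap between groups, up to 4 called members per direction of each list with the members the list is known for, and the 6 largest falls and rises among NONO-specific genes. Some genes that the rule covers, and some list members, are left out here. Overlapping genes, AL035461.3 with its neighbours, and the mitotic promoters shown were chosen after their values were seen.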

Additional observations from a re-analysis of the deposited data

Results flagged for a closer look

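The following differences between the responses to NONO and PKM2 knockdown, each against its own NC, had an adjusted P below 0.05 by edgeR, as an interaction term over 12 libraries. The genes had been named for their change after NONO knockdown or as NONO-specific, and 57.9% of all genes tested in both experiments passed the same test. EIF4EBP2, NANOS1, CTDSPL, TNRC6C, TNFSF15 and MUC5B were named only as NONO-specific, a rule that required this test to pass. Their place here was thus fixed by the choice. Values are log2 fold changes after NONO knockdown minus those after PKM2 knockdown.

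Among the falls, the response to NONO knockdown was lower for IL11 (-0.69), NONO (-2.86), VAMP3 (-2.24), SMARCD3 (-0.61), MGAT5B (-1.57), EIF4EBP2 (-1.63), NANOS1 (-2.71), CTDSPL (-1.64), TNRC6C (-2.21) and HNRNPUL1 (-0.49). For MYH10 (2.79), RASGRF1 (0.62) and TRNP1 (1.29) the difference was positive because they fell further after PKM2 knockdown, MYH10 by 4.62 on the log2 scale.

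Among the rises, the response to NONO knockdown was higher for AL035461.3 (5.13), HAS2 (2.49), TFPI2 (0.96), TPM4 (1.44), SIGLEC15 (2.31), TNFSF15 (3.28), MUC5B (2.73), NEAT1 (1.28), SFPQ (0.62) and HNRNPA1 (0.61). It was lower for MMP3 (-1.44), MMP1 (-1.09), NOLC1 (-0.49) and HIST1H2BD (-2.67), which rose further after PKM2 knockdown, HIST1H2BD by 4.27 on the log2 scale. AL035461.3 had a mean of 53.002 CPM in the NC of the PKM2 experiment and 57.7 CPM after PKM2 knockdown, in a table made with another annotation release, so its difference carries the uncertainty of its counts.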

How the results depend on the processing

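With 3 libraries a group, fold changes of weakly expressed genes are imprecise, and list counts move with single libraries, above all NC library 1. Single-gene results numbered 296, made up of fold changes and, for named NONO-specific genes, also differences between the knockdowns. Under the alternatives 3084 of their values kept direction and side of the threshold, 691 lost the call and 3 reversed. The 3 were all for BAX, at -0.040 with limma under each of the 3 TPM settings. Without a low-count filter DEGs numbered 606 lowered and 324 raised. With limma on log2(TPM + 1) they were 115 and 57, and without a TPM filter 118 and 56. Called genes were 911 raised with limma on log2(TPM + 1), 913 with a pseudocount of 0.1, and 584 raised with 1115 lowered without the TPM filter. In these 3 limma settings, in the same order, G1/S genes raised were 14, 14 and 9, G2/M genes 12, 12 and 9, ribosomal protein genes 27, 27 and 12, chaperone genes 5, 5 and 3, and potassium channel genes lowered 1, 1 and 2. Without the TPM filter, limma lowered 5 YAP/TAZ, 2 p53, 7 matrix glycoprotein, 8 cholesterol and 6 ATF4 genes. The cause was not tested.

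Leaving out each library gave 131 to 193 raised DEGs, 19 to 34 raised G2/M genes, 8 to 21 raised chaperone genes, 6 to 11 lowered IL6-family genes, 9 to 20 lowered ATF4 genes and 10 to 22 lowered matrix glycoprotein genes. NONO stayed between -2.59 and -2.53, and NONO-specific genes numbered 88 to 109. DESeq2 called 2172 lowered and 2188 raised genes, 2156 and 2150 of them shared with edgeR. Libraries with the same number were not treated as pairs in the main fit. Correlations of their deviations were -0.065, 0.036 and -0.043, which cannot show whether they were prepared together. With the replicate number as a block, 2271 genes were lowered and 2080 raised, with 321 and 116 DEGs and 94 NONO-specific genes.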
